A study of Homo sapiens with 3 samples.

Results

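Long joined blocks of H3K36me3 peaks were examined in LNCaP, a prostate cancer line in long use that responds to androgen. To find them, the peaks of a DHT-treated and an untreated library were pooled on chromosomes 1 to 22, X and Y. Neighbouring peaks with a gap of 5 kb or less were merged, and merged blocks were kept from 30 kb upwards. This gave 1267 long blocks out of 67114 joined blocks of any length, or 1.89%, and 13.8% of the 9168 blocks of 10 kb or more. Block length and the largest pooled gap were therefore fixed by the choice and are not results. The blocks were chosen from the same 2 peak lists that are described here.

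H3K36me3 is histone H3 trimethylated at lysine 36. In mammals SETD2 places the mark as it travels with elongating RNA polymerase II, so that it accumulates over the bodies of transcribed genes and is low at promoters and in silent sequence. Proteins with a PWWP domain bind the mark. Dihydrotestosterone (DHT) is the potent androgen made from testosterone, and it activates the androgen receptor that LNCaP cells express.

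The DHT library came from LNCaP cells that received 100 nM DHT during 4 h in RPMI that the labels call red-free. The untreated library came from LNCaP cells whose treatment is given as none. All cells had been grown in RPMI with fetal bovine serum. Since nothing says which medium the untreated cells had at that time, hormone and medium cannot be told apart. An input library without antibody was not analysed here. With 1 library per condition there is no spread between replicates and no p-value, and every 95% interval below covers counting error only, although neighbouring peaks are not independent. The identity of the line could not be checked against its marker genes, because no gene annotation of hg19, the build of the files per their names, was at hand. For the same reason blocks carry no gene name and no strand, and no sequence is printed.

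The long blocks spanned 52.4 Mb and held 17623 of the 131798 DHT peaks (13.4%, Wilson interval 13.2% to 13.6%) and 15556 of the 117564 untreated peaks (13.2%, 13.0% to 13.4%). Peaks covered 9.36 Mb of the blocks after DHT and 9.58 Mb in untreated cells. Sequencing depth is not given in the sources used here. The deposited score of a peak is the authors' value on a scale that is not stated, and it served only to rank peaks within a list.

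Most long blocks were long only when both lists were pooled. Joined on its own at 5 kb, the DHT list gave 349 blocks of at least 30 kb, the longest 96619 bp, and the untreated list gave 226, the longest 80536 bp. Of the 1267 pooled blocks, 58 held such a block of each list. A further 288 held one of the DHT list only and 168 held one of the untreated list only. The remaining 753, or 59.4%, held none. The longest piece that a list could join without the other had a median of 21.2 kb for DHT peaks and 17.5 kb for untreated peaks. The word domain is therefore not used for them here: a long block is a run of peaks, most often kept together by peaks of both lists.

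Block length had a median of 37.2 kb, with quartiles of 32.9 and 45.3 kb. There were 1062 blocks of 30 to 50 kb, 169 of 50 to 75 kb and 36 of 75 kb or more. The longest, 143.0 kb, lay on chromosome 3. Just above the limit, the 5 shortest members were 30001 to 30060 bp long, with 9.19% to 18.3% covered by DHT peaks and 6.45% to 22.2% by untreated peaks. The 5 blocks just below it were 29946 to 29991 bp long, with 13.5% to 19.2% covered by DHT peaks and 11.9% to 21.5% by untreated peaks. Blocks on either side of the limit thus overlapped in both shares.

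**Figure D1:**
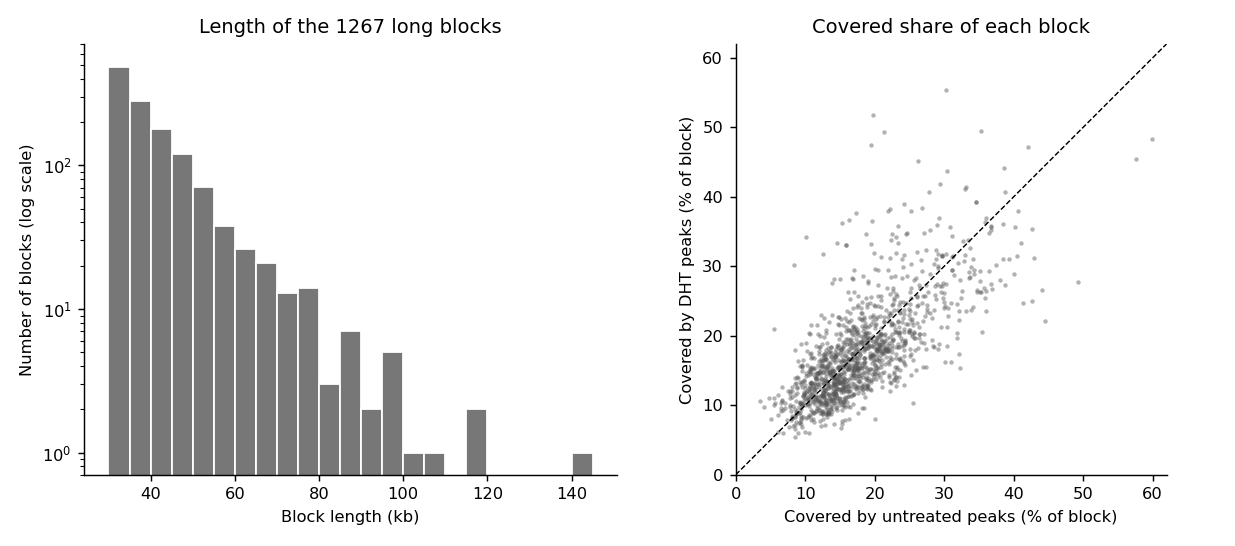
Left, number of long blocks (log scale) by block length in kb, in classes of 5 kb. Right, percent of each long block covered by DHT peaks (vertical) against untreated peaks (horizontal), 1 point per block with a dashed line of equal shares. Numbers fall steeply with length, and the points lie along the line with a wide scatter around the medians of 16.5% after DHT and 16.9% in untreated cells.

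Long blocks were most numerous on chromosome 1 (129), chromosome 3 (88) and chromosome 2 (80), and fewest on Y (3), 21 (10) and X (15). For their span, chromosomes 19 and 17 held the most, with 8.63 and 8.50 blocks per 10 Mb. Autosome 13, which is poor in genes, held 1.39 per 10 Mb. Across the 24 chromosomes the block number rose with the count of protein-coding genes (r = 0.805 by Pearson, rho = 0.684 by Spearman) and with span (r = 0.732, rho = 0.726). Without chromosomes 1 and Y, r with gene number was 0.636. Without chromosomes 1 and 2, r with span was 0.613. Blocks per 10 Mb went with genes per Mb at r = 0.785 and rho = 0.695, and at r = 0.660 without chromosomes 17 and 19. Larger chromosomes have both more genes and more blocks, so these relations describe the map and share both libraries. The longest block of a chromosome ranged in length from 38.0 kb on Y to 143.0 kb on chromosome 3.

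Only a minor part of a long block lay under peaks. The covered share had a median of 16.5% after DHT (interval 15.9% to 16.8%) and 16.9% in untreated cells (16.4% to 17.4%). Peaks of either list together covered a median of 24.8%. Blocks ranged widely, between 5.37% and 55.4% after DHT and between 3.44% and 59.9% in untreated cells. At least 30% was covered in 92 blocks after DHT and in 94 in untreated cells, and under 10% in 108 and 105. The joining rule sets a floor to this share, since every 5 kb has to touch a peak. A block well covered in one library was mostly well covered in the other, with r = 0.715 and rho = 0.726 across the 1267 blocks, which share the rule that pooled them. Longer blocks were not more densely covered (rho of covered share with length 0.031). Blocks of 10 to 30 kb had medians of 15.8% after DHT and 15.99% in untreated cells, so the long blocks differed from them mainly in extent.

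Peaks in long blocks were short and closely set, and they were more numerous and narrower after DHT. A block held a median of 13 DHT peaks (3 to 51) and 12 untreated peaks (3 to 44). Per 10 kb there were 3.37 DHT peaks and 2.97 untreated peaks. Mean peak width was 531 bp after DHT and 616 bp in untreated cells, and the medians were 401 and 443 bp. Outside the long blocks mean widths were 496 and 537 bp, but in blocks of 10 to 30 kb they were 560 and 619 bp, so wider peaks were not particular to the long blocks. The narrower peaks after DHT were seen block by block: 962 of 1267 blocks had a smaller mean width after DHT. In 808 blocks there were more DHT peaks than untreated peaks, in 352 fewer, and in 107 as many. The ratio of peak number was 1.13 in the long blocks, close to the 1.12 of both whole lists and the 1.12 of blocks of 10 to 30 kb. A combination of more peaks with a smaller mean width was found in 669 blocks. No such counts are given for shorter blocks. There, too, peaks were more numerous and had a smaller mean width after DHT, so this was not particular to the long blocks. Scores within the blocks had a median of 93.1 in the DHT list, against 85.7 over that whole list, and of 88.1 in the untreated list, against 81.2 over the whole of it. In blocks of 10 to 30 kb the medians were 91.1 in the DHT list and 86.0 in the untreated list, so higher scores were not particular to the long blocks.

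Gaps between neighbouring peaks of the same list had a median of 2080 bp after DHT and 2273 bp in untreated cells, close to the 2117 and 2258 bp of blocks of 10 to 30 kb. About as many gaps were under 1 kb in each list, 29.4% after DHT and 28.5% in untreated cells. The lists differed more at the long end. Gaps over 5 kb, which only the peaks of the other list bridged, made up 10.8% of the 16356 DHT gaps and 15.5% of the 14289 untreated gaps. The longest stretch of a block without a peak had a median of 6293 bp after DHT and 7079 bp in untreated cells. Stretches over 10 kb occurred in 83 blocks after DHT and in 190 in untreated cells. The largest reached 17776 bp after DHT and 23588 bp in untreated cells.

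Peaks of 2 kb or more were rare in the long blocks and fewer after DHT, with 287 of the DHT peaks (1.63%) and 448 of the untreated peaks (2.88%). They covered 0.878 Mb after DHT and 1.32 Mb in untreated cells, a DHT over untreated ratio of 0.664. In blocks of 10 to 30 kb the same ratio was 0.939. Narrower peaks showed no such contrast, with a length ratio of 1.03 in the long blocks and of 1.03 in blocks of 10 to 30 kb. Over the whole lists there were 2700 DHT and 3036 untreated peaks of 2 kb or more. At 4 kb or more the direction depended on the blocks. Long blocks held 45 such DHT peaks and 58 untreated ones, but blocks of 10 to 30 kb held 247 and 206, and the whole lists 485 and 413.

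Wide peaks of one list were set against the peaks of the other. A wide peak of the other list met 149 of the 287 wide DHT peaks and 147 of the 448 wide untreated peaks. Of the 448 wide untreated peaks, 140 (31.3%) were met by at least 2 DHT peaks, 265 by 1 and 43 by none. Of the 287 wide DHT peaks, 14 (4.88%) were met by at least 2 untreated peaks, 187 by 1 and 86 by none. A stretch called as 1 peak in untreated cells was thus more often divided into several peaks in the DHT list than the other way round. This also held in blocks of 10 to 30 kb, where 6.89% of 1249 wide DHT peaks and 28.5% of 1384 wide untreated peaks were met by at least 2 peaks of the other list. The DHT list has more peaks in all, and the part this plays in the count was not tested. Covered by the other list was a median of 76.2% of the width of wide DHT peaks and 65.2% of that of wide untreated peaks.

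On average the long blocks had a flat interior. Each was divided into 20 equal bins from its low to its high coordinate. In bins 2 to 19 the mean covered share ran between 14.9% and 17.6% after DHT and between 14.4% and 18.0% in untreated cells. The middle (bins 6 to 15) was covered 1.03 times as much as the outer bins 2 to 5 and 16 to 19 in both libraries. Bins 1 and 20 averaged 30.6% after DHT and 31.9% in untreated cells, which the rule fixes, since every block starts and ends on a peak. DHT peaks set 1226 block ends, untreated peaks 1282, and both at the same base 26. The DHT over untreated ratio of the bins ranged from 0.909 in bin 2 to 1.07 in bin 8, with no trend from end to end. Measured in kb from the nearer end, coverage was 40.7% after DHT and 41.9% in untreated cells in the first kb. It was 19.8% and 21.6% in the next, and lowest at 4 to 5 kb, with 14.2% after DHT and 13.9% in untreated cells. From 5 to 15 kb it stayed between 15.9% and 17.4% after DHT and between 15.4% and 18.1% in untreated cells.

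**Figure D2:**
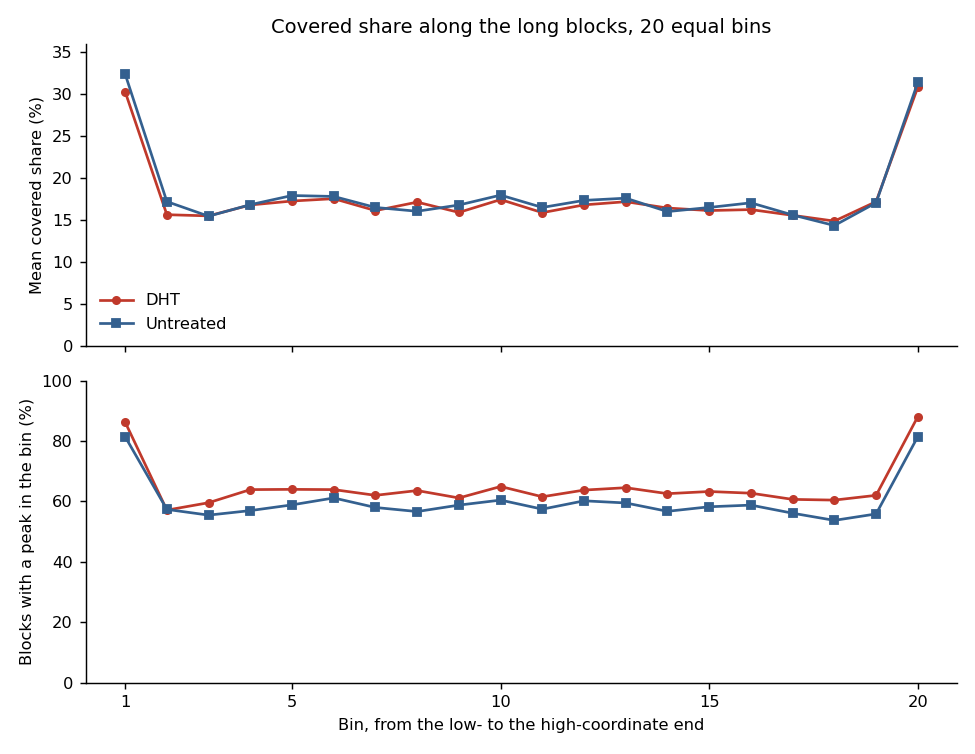
Mean covered share (top, %) and percent of the 1267 long blocks with a peak (bottom) in 20 equal bins from the low- to the high-coordinate end, for DHT (red circles) and untreated (blue squares) peaks. Both libraries are flat between bins 2 and 19, at 14.9% to 17.6% after DHT and 14.4% to 18.0% in untreated cells, and DHT peaks reach more blocks in most bins.

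The flat average hid uneven single blocks. Of all 25340 bins, 35.2% had no DHT peak and 39.8% no untreated peak. Peaks of both lists fell in 46.0% of bins, DHT peaks only in 18.9%, untreated peaks only in 14.2%, and neither in 21.0%. Within a block, the densest bin had a median covered share of 56.2% after DHT and 63.9% in untreated cells. The order of dense and empty bins was partly shared: the correlation of the 20 bins between libraries had a median of 0.511 over the blocks, with 0.056 and 0.821 at the 5th and 95th percentiles, and was negative in 48 blocks. With the end bins left out the median was 0.515.

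Blocks were also often denser on the low- or the high-coordinate side of their midpoint. The same side was the more covered one in both libraries in 830 blocks, or 65.5%. The difference between the sides, as a share of their sum, went together in the 2 libraries at r = 0.420 and rho = 0.430 (1267 blocks). One side was covered at least 2-fold more than the other in 190 blocks after DHT and in 240 in untreated cells. Of the 74 blocks that met this in both libraries, 65 had the same denser side. Neither direction prevailed, as the high-coordinate side was denser in 629 blocks after DHT and in 606 in untreated cells. Strand was not available, so these sides cannot be assigned to the beginning or end of a gene.

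Along the blocks, coverage was related over short distances. Long blocks were cut into 49207 tiles of 1 kb, and the covered share of a tile was correlated with that of tiles at a set distance in the same block, as a description. In the same tile the libraries went together at r = 0.508. Tiles 1 kb apart had r = 0.231 within the DHT list and 0.286 within the untreated list. Beyond that the values were weak. At 4 kb they were slightly negative, -0.034 after DHT and -0.071 in untreated cells, and at 6 kb slightly positive, 0.101 and 0.068. The 5 kb joining rule can itself give such a course. In 394 regions joined at 100 kb and at least 1 Mb long (757113 tiles), added after these values had been seen, r was 0.083 after DHT and 0.061 in untreated cells at 4 kb, and 0.136 and 0.120 at 8 kb. In these regions the values at 4 kb were thus positive, though below those at 3 kb (0.119 and 0.095) and at 5 kb (0.099 and 0.078). Such regions can contain long blocks, and the part of the joining rule was not tested.

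Of all sequence covered by either list in the long blocks, 36.5% was covered by both libraries. The share was 31.9% over everything outside them, but 35.5% in blocks of 10 to 30 kb and 29.2% in shorter ones, so the long blocks differed little from the blocks next in length. Shared sequence came to 5.06 Mb, DHT-only sequence to 4.30 Mb and untreated-only sequence to 4.52 Mb. A peak of the other list overlapped 56.7% of the DHT peaks in long blocks (Wilson interval 56.0% to 57.5%), against 47.2% outside them. For untreated peaks the shares were 61.5% (60.8% to 62.3%) in long blocks and 50.8% outside. Pooling selects places where peaks of both lists are dense, so a higher overlap is partly built into the choice of blocks. Peaks without an overlap were not far from the other list: the nearest untreated peak lay a median of 1177 bp from such a DHT peak, and the nearest DHT peak 997 bp from such an untreated peak. Block by block, shared sequence ranged from 2.98% to 73.2% of the covered sequence, with a median of 35.3%.

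Over all long blocks, covered length did not differ between the libraries beyond counting error. The summed ratio of DHT over untreated length was 0.977 (counting interval 0.949 to 1.01), and that of all peaks outside the long blocks was 1.03 (1.02 to 1.05). The ratio of the 2 was 0.945 (0.916 to 0.975). Among the blocks outside, the ratio of DHT over untreated length was 1.01 (0.995 to 1.03) in those of 10 to 30 kb and 1.05 (1.03 to 1.07) in shorter ones. The interval of the blocks of 10 to 30 kb overlaps that of the long blocks. By number of peaks the ratio was 1.13 in the long blocks and 1.12 over all peaks. The direction by length was turned by leaving out wide peaks, with 1.03 over peaks under 2 kb, and by joining at 10 kb, with 1.01 over 5161 blocks. With no second library of either condition, how far untreated libraries would differ from each other in these ratios is unknown.

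**Figure D3:**
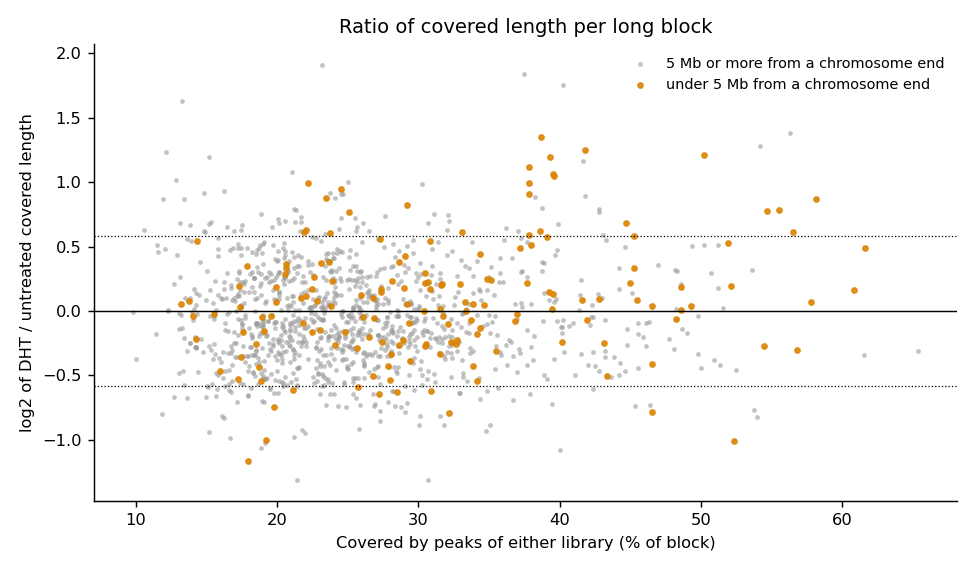
Log2 of DHT over untreated covered length (vertical) against the percent of the block covered by peaks of either list (horizontal), 1 point per long block, with blocks under 5 Mb from a chromosome end in orange. The solid line marks equal lengths and the dotted lines 1.5-fold. Most blocks lie between the dotted lines at every covered share, and densely covered blocks near chromosome ends lie mostly above the solid line.

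Single blocks scattered around this ratio. The median block had a ratio of 0.954, the 5th and 95th percentiles were 0.642 and 1.60, and the range was 0.403 to 3.76. Covered length was higher after DHT in 556 blocks and lower in 711. Of the background blocks described next, 48.2% were higher and 51.8% lower. In 316 blocks there were more peaks after DHT but less covered length, a count not given for shorter blocks. A difference of at least 1.5-fold was found in 91 blocks with more and 85 with less covered length after DHT. With the lists cut by score to equal covered length, 80 of the same blocks were higher and 105 lower by that fold. The background was taken from all blocks of 10 kb or more in which peaks of the DHT or the untreated list covered 5 kb or more. Among these 2676, 17.0% were at least 1.5-fold higher after DHT and 11.4% at least 1.5-fold lower. Among the 1038 long blocks that met the same condition, 74 (7.13%) were higher and 70 (6.74%) lower by that fold. A 2-fold difference was reached by 15 long blocks with more covered length after DHT (1.45%, against 8.07% of all 2676) and by 7 with less (0.674%, against 2.73%). The shares of long blocks past these folds were thus below those of the background, in which shorter blocks with fewer peaks are counted together with them. The 5 kb condition also admits a block through the list in which it is more covered. Without it, 17.5% of blocks of 10 to 30 kb were at least 1.5-fold higher and 17.9% at least 1.5-fold lower. Of all long blocks the shares were 7.18% and 6.71%. Blocks without an untreated peak were not counted as higher there. The difference between long blocks and background was not tested, nor were the parts that this condition and the number of peaks per block play in it.

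The counting interval was wide for a single block. It reached from the ratio divided by 2.44 to the ratio times 2.44 in the median block. This interval treats the 2 lists as independent, although their covered shares went together across blocks (r = 0.715). The 5th and 95th percentiles of the block ratios, 0.642 and 1.60, lay nearer to 1 than that factor. An interval that includes 1 therefore says little about a block. A ratio of 1 lay outside the interval in 2 of the 1038 blocks, 1 with a higher and 1 with a lower covered length after DHT, against 0.336% higher and 0.0374% lower of all 2676. When only the higher-scoring 50% of each list was counted inside the same blocks, 73 of the 91 higher blocks and 76 of the 85 lower ones kept their direction. In that setting 55 and 44 of them were still past 1.5-fold. Those peaks are part of the lists that gave the ratios, so this is no separate support.

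Over all long blocks, the ratio on one side of a block said little about the ratio on the other. The log2 ratio on the low-coordinate side of the midpoint and that on the high-coordinate side were nearly unrelated, with r = 0.069 and rho = 0.091 over the 1266 blocks where both sides were covered in both libraries. Covered share itself did extend over blocks, with r = 0.400 between the log2 shares of the sides after DHT and 0.337 in untreated cells. Both sides had more covered length after DHT in 268 blocks, both had less in 419, and they went in opposite directions in 579 (45.7%). Of the blocks at least 1.5-fold higher, 90 had both sides covered in both libraries. Both sides were higher in 75 of these, and at least 1.5-fold higher in 23. Of the 85 blocks at least 1.5-fold lower, both sides were lower in 85 and at least 1.5-fold lower in 28. These blocks were chosen by the ratio of their sides together, which favours sides of the same direction. Odd and even bins of a block, which alternate along it, gave r = 0.108 for the log2 ratio. Neighbouring long blocks gave r = -0.089 over 75 pairs within 20 kb and r = 0.081 over 222 pairs within 100 kb. All these values share the same 2 libraries. A whole block held a median of 13 DHT and 12 untreated peaks, and a side holds fewer. How far so few peaks lower r was not tested, so these values do not show whether a difference extends over a block.

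**Figure D4:**
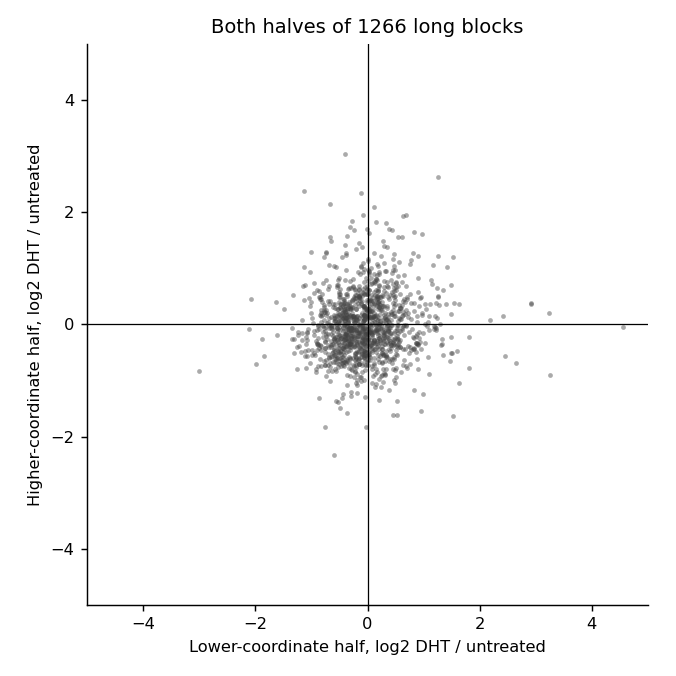
Log2 of DHT over untreated covered length on the high-coordinate side of the block midpoint (vertical) against the low-coordinate side (horizontal), 1 point for each of 1266 long blocks. The points form a round cloud about 0 (r = 0.069), with 579 blocks in the quadrants of opposite direction.

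The tile values described the difference over shorter distances. The DHT minus untreated difference in covered share had r = 0.234 between tiles 1 kb apart and 0.025 between tiles 2 kb apart. It was -0.049 at 4 kb and at most 0.017 from 5 to 15 kb. In the long blocks, the difference was thus clearly related only between adjoining tiles. A single peak that crosses a tile border relates adjoining tiles by itself, so these values do not give the reach of a change.

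Long blocks near chromosome ends had a summed ratio above 1, with an interval that included 1, and the others a ratio below 1. A division at 5 Mb put 160 blocks (12.6%) near an end. There, 92 blocks had more and 68 less covered length after DHT, and the summed ratio was 1.07 (0.983 to 1.17). In the 1107 other blocks, 464 had more and 643 less, and the ratio was 0.961 (0.932 to 0.990). The counting intervals of both classes met only at their edges. No such division is given for shorter blocks or for all peaks, so whether it is particular to long blocks is unknown. Blocks near ends were also more densely covered, at 22.5% after DHT and 20.9% in untreated cells, against 17.2% and 17.9% elsewhere. Their peaks were wider, with means of 696 bp after DHT and 770 bp in untreated cells, against 508 and 596 bp elsewhere.

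Position and density were then looked at together. In the most covered 20% of blocks near ends (66 blocks), the ratio was 1.17 (1.01 to 1.35), with 46 blocks higher after DHT and 20 lower. In the equally dense 188 blocks away from ends it was 0.980 (0.907 to 1.06), with 78 higher and 110 lower. Among less covered blocks the ratio was 0.975 (0.889 to 1.07) near ends (94 blocks) and 0.953 (0.926 to 0.982) elsewhere (919 blocks). Among long blocks, the higher ratio was thus seen in those both near an end and dense, and the intervals of the 2 dense classes overlap. These classes, too, are not given for shorter blocks.

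Sorted by covered share alone, the blocks differed more in the number and width of their peaks than in the ratio. From the least to the most covered 20% of blocks, the ratio of covered length was 0.963, 0.964, 0.971, 0.933 and 1.03. The ratio of peak number rose along the same order, 1.02, 1.09, 1.11, 1.15 and 1.32. Mean peak width was 361 bp after DHT and 383 bp in untreated cells in the least covered blocks, and 900 and 1156 bp in the most covered ones. In the most covered blocks the excess of DHT peaks and their smaller width were thus both largest, and covered length nearly balanced.

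By chromosome, the summed ratio of the long blocks was under 1 on 17 chromosomes and above 1 on 7, namely 2, 11, 14, 17, 19, 21 and X. It ranged from 0.904 on chromosome 6 (0.772 to 1.06, 45 blocks) to 1.24 on chromosome 21 (0.895 to 1.72, 10 blocks). None of the 24 counting intervals excluded 1, which does not show equal lengths. The ratio did not go with gene density (r = 0.085, rho = 0.192 over 24 chromosomes, and r = -0.038 without chromosomes 17 and 19).

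In the 10 longest blocks, total covered length differed by less than 1.5-fold between the libraries. Their ratios ran from 0.711 to 1.26, 4 above 1 and 6 below. Every counting interval included 1, as did those of nearly all long blocks, so this does not show equal lengths. The longest of all, on chromosome 3 from 47605805 to 47748798, was covered over 22013 bp by 51 DHT peaks and over 21940 bp by 44 untreated peaks. No DHT peak in it was wider than 1.01 kb and no untreated peak wider than 1.44 kb, so its length came from many short peaks. Its low-coordinate side had more covered length after DHT (ratio 1.21) and its high-coordinate side less (0.831), and the correlation of its 20 bins between libraries was 0.003. Of its covered sequence 31.7% was covered by both lists, against 36.5% over all long blocks.

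Other long blocks were built from wider peaks. On chromosome 17 from 78276838 to 78376288, 26 DHT peaks covered 35.2% of 99.5 kb and 15 untreated peaks covered 28.0%. Its widest peaks were 6.49 kb after DHT and 5.53 kb in untreated cells. On chromosome 6 from 160445743 to 160545287, 39 DHT peaks covered 31.8% and 21 untreated peaks 29.1% of 99.5 kb. That block was joined nearly whole by DHT peaks alone, over 96619 bp, while untreated peaks alone joined at most 16882 bp of it, although they covered almost as much. The next longest, on chromosome 7 from 156954126 to 157069436 (115 kb), showed the opposite: untreated peaks alone joined 69215 bp and DHT peaks alone at most 39747 bp. Among the 10 longest the lowest ratio, 0.711 (0.419 to 1.21), was on chromosome 4 from 41608303 to 41704976, with 12.7 kb covered after DHT and 17.8 kb in untreated cells.

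**Figure D5:**
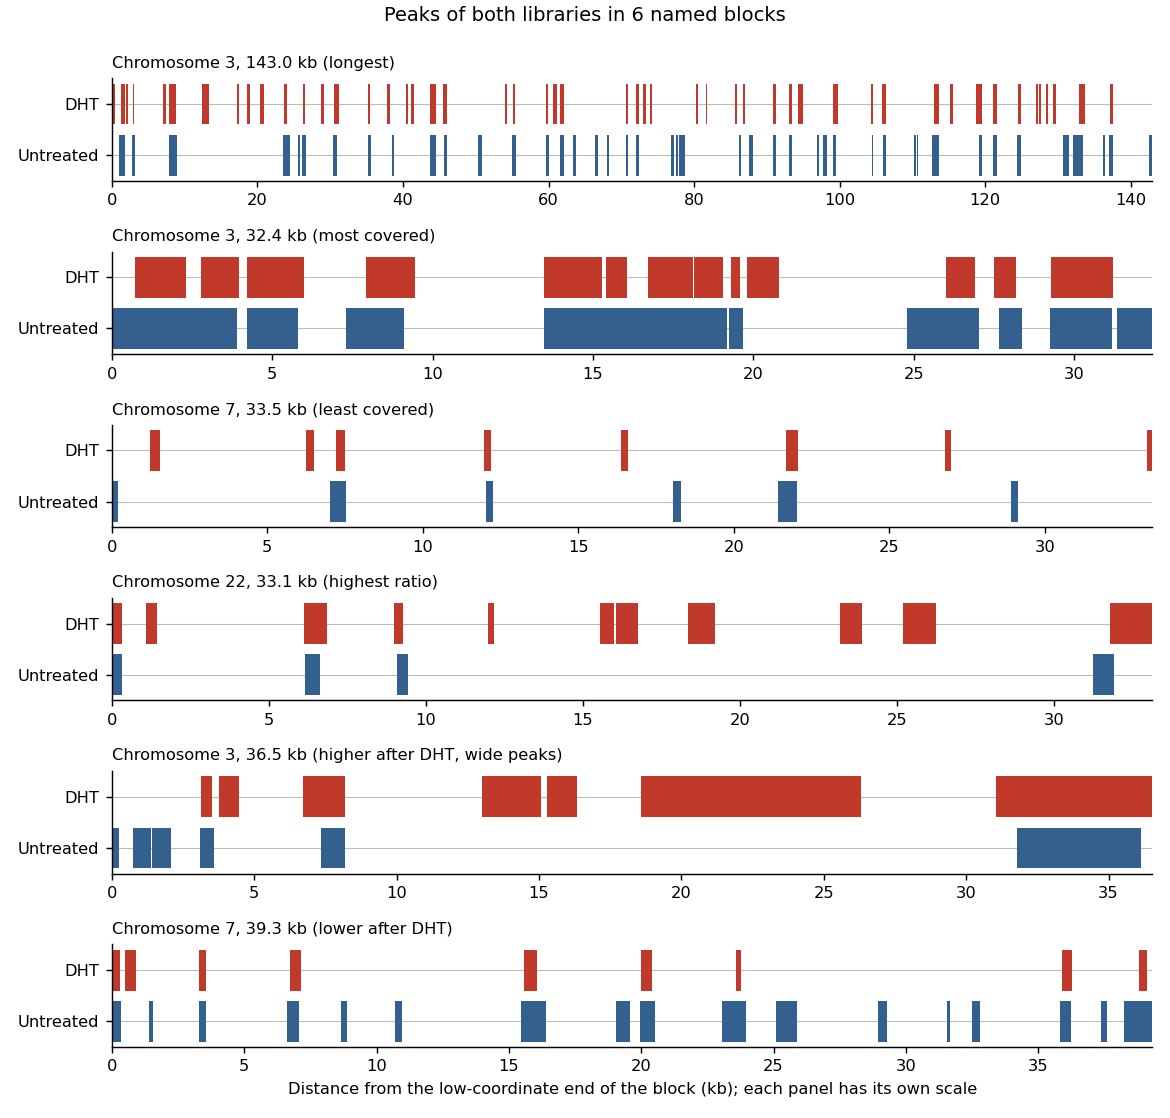
Positions of DHT peaks (red, upper row) and untreated peaks (blue, lower row) in 6 named long blocks, as distance in kb from the low-coordinate end, each panel with its own scale. The longest block is a run of short peaks in both rows, the most covered block has several DHT peaks under single wide untreated peaks, and the 3 blocks chosen for their ratio differ by the presence or width of several peaks.

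The 10 blocks with the highest ratio ran from 2.31 to 3.76 and were chosen for it, so these values only describe them. First was a block on chromosome 22 from 28362433 to 28395571, with 6.95 kb under 11 DHT peaks and 1.85 kb under 4 untreated peaks (interval 1.11 to 12.8). The untreated peaks left a stretch of 21.8 kb without a peak, and DHT peaks left none over 5.52 kb. In this block both sides had more covered length after DHT, and the higher-scoring 50% of peaks gave a ratio of 3.74. It was the only long block whose interval lay wholly above 1.

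Some of the other high ratios rested on a few wide DHT peaks with low scores. On chromosome 3 from 52491780 to 52528320, 18.9 kb were covered by 7 DHT peaks and 7.24 kb by 6 untreated peaks. The widest DHT peak there was 7.74 kb wide and scored 61.3, under the list's median, and with the higher-scoring 50% of each list the ratio of 2.61 became 1.18. On chromosome 20 from 31033341 to 31067153, a DHT peak of 6998 bp scored 74.4, and the ratio of 3.37 became 1.55. On chromosome 11 from 61600929 to 61635444 the ratio of 2.43 became 0.958, the only one of the 10 to turn. In these 3 blocks the size of the difference moved with the peaks of low score. Ratios also fell on chromosome 13 (2.55 to 1.27), on chromosome 17 (2.38 to 1.59) and on chromosome 20 from 13542000 to 13574730 (3.10 to 1.57). The last had no DHT peak over 533 bp. On chromosomes 21 and 9 the ratio rose instead, from 2.36 to 4.92 and from 2.31 to 3.65.

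Other blocks of high ratio did not rest on peaks of low score. On chromosome 9 from 139323194 to 139362888, 1.71 Mb from the chromosome end, 19.6 kb were covered by 9 DHT peaks and 8.46 kb by 4 untreated peaks, a ratio of 2.31 that was 3.65 in the higher-scoring 50%. There the low- and high-coordinate sides both had more covered length after DHT, at 2.67 and 2.04 times. On chromosome 20 from 39772987 to 39803799 the sides went opposite ways, with ratios of 0.761 and 8.25 in a block of 9.30 kb under DHT peaks and 2.59 kb under untreated peaks. Its libraries shared 2.98% of the covered sequence, the lowest share of any long block. Of the 10, 3 lay within 5 Mb of a chromosome end.

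The 10 blocks with the lowest ratio ran from 0.403 to 0.508 and in 9 of them no peak reached 2 kb. On chromosome 7 from 8234743 to 8274056, 3.18 kb were covered by 9 DHT peaks and 7.89 kb by 17 untreated peaks, a ratio of 0.403 (0.168 to 0.968). This was the only long block with an interval wholly below 1. Untreated peaks alone joined all of its 39.3 kb, and DHT peaks alone at most 8189 bp of it. On chromosome 19 from 35226181 to 35262153, 9 DHT peaks covered 3.69 kb and 13 untreated peaks covered 9.17 kb, also a ratio of 0.403 (0.161 to 1.01). There the ratio was 0.124 on the low-coordinate side and 0.564 on the high-coordinate side.

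Blocks of low ratio differed from each other in the number and width of their peaks. On chromosome 10 from 111624124 to 111659837 there were more DHT peaks (14) than untreated peaks (12), but 5.47 kb covered after DHT and 11.5 kb in untreated cells, with mean widths of 390 and 962 bp. On chromosome 17 from 80199945 to 80236493, 0.902 Mb from the end, 8 DHT peaks covered 8.10 kb and 5 untreated peaks covered 16.3 kb. Its widest untreated peak was 6.91 kb wide with a score of 75.8, and its widest DHT peak 2.38 kb wide with a score of 198. In the remaining blocks of this set there were fewer DHT than untreated peaks. All 10 kept a ratio under 1 with the higher-scoring 50% of peaks, and 3 lay within 5 Mb of a chromosome end.

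Each of the 5 most covered blocks had an untreated peak over 4 kb, and 4 of them also had a DHT peak over 2 kb. In the first, on chromosome 3 from 183881089 to 183913532, 48.3% was covered by 13 DHT peaks and 59.9% by 9 untreated peaks, and 65.5% of the covered sequence was shared. Its widest peak was 1.95 kb after DHT and 5.70 kb in untreated cells. On chromosome 15 from 42104674 to 42142629, 45.5% was covered by 8 DHT peaks and 57.7% by 6 untreated peaks, with widest peaks of 6.98 and 7.22 kb and 67.6% shared. These 2 blocks had the highest shared parts among the 5 most covered. On chromosome 19 from 4422376 to 4455359 the shares were 49.5% after DHT and 35.3% in untreated cells, and the widest DHT peak, 7.07 kb, had the block's lowest DHT score, 55.6. Ratios among the 5 ran from 0.789 to 1.83, and only 2 kept their direction with the higher-scoring 50% of peaks.

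At the other end were blocks that barely met the joining rule. The least covered, on chromosome 7 from 95851535 to 95884998, had 2047 bp under 8 DHT peaks and 2054 bp under 6 untreated peaks in 33.5 kb, or 6.12% and 6.14%. Its widest peak was 0.370 kb after DHT and 0.635 kb in untreated cells, and neither list alone joined more than 15357 bp of it. On chromosome 2 from 128513097 to 128559057, 10 DHT peaks covered 6.01% and 10 untreated peaks 6.79% of 46.0 kb, and 12.1% of the covered sequence was shared. Its ratio of 0.884 became 0.296 with the higher-scoring 50% of peaks. None of the 5 least covered blocks lay within 5 Mb of a chromosome end. Each of these blocks counts as long beside the densest one although under 12% of it was covered by either list.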

How the data were processed

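Chromatin immunoprecipitation sequencing of H3K36me3 gave 1 peak list per library, deposited by the authors with chromosome, start, end, name and score. MACS was the peak caller, per the peak names, and hg19 the build, per the file names. Its version and settings, the control, the aligner and the read number are not stated in any source used here. The deposited score is the authors' value per peak, with no stated scale, and start and end are the authors' deposited coordinates, printed here counting from 1. Peaks mark where the caller's threshold was met and do not measure the level of H3K36me3.

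Blocks, covered lengths, bins and tiles were computed in Python 3.11.15 with NumPy 2.4.6, pandas 2.3.3 and SciPy 1.17.1, and drawn with matplotlib 3.10.9. Joining was checked with bedtools 2.31.1, which gave the same 1267 blocks, and the functions were tested on simulated data. Overlap meant at least 1 bp. The interval of a covered length ratio treats squared peak widths as Poisson variances and the 2 lists as independent. That of a median uses binomial ranks. Chromosome ends were set at the end of the last peak and, if the first peak started in the first 1 Mb, at position 1. GRCh38.p14 gene numbers per chromosome were used without coordinates.

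The blocks, measures and comparisons were chosen with earlier results of these data known. Named regions are the 10 longest blocks, the 10 highest and 10 lowest ratios, the 5 most and 5 least covered, and the longest of each chromosome. Each is named with values where it adds to the text. Alternatives were the higher-scoring 50% of each list, lists cut by score to equal covered length, other joining distances, block lengths, folds, bins and measures, and leaving out chromosome 19.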

Additional observations from a re-analysis of the deposited data

Results flagged for a closer look

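Mitochondrial DNA, which carries no histones, lay outside all comparisons, and none of its peaks belongs to a long block. The untreated list held 4 peaks there, above a fixed limit of 3 for listing it here, which is not a test. The DHT list held 3, covering 1764 bp against 2601 bp in the untreated list.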

How the results depend on the processing

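Values are given in the order DHT, untreated, or higher, lower. With blocks rebuilt from the higher-scoring 50% of each list there were 130 blocks, covered shares of 13.6% and 16.1%, median gaps of 3098 and 3302 bp, a ratio of 0.921, 12 and 20 blocks past 1.5-fold, 31.9% shared and r = 0.161 between sides. Joined at 2.5 kb, 5 blocks were left, with 30.2% and 23.6% covered, gaps of 1510 and 1258 bp, middle over outer bins of 0.893 and 0.865, a ratio of 1.14, 1 and 0 past 1.5-fold, 31.9% shared and r = -0.448. Joined at 10 kb there were 5161, with 11.0% and 11.2% covered, gaps of 2803 and 3139 bp, a ratio of 1.01, 577 and 493 past 1.5-fold, 35.6% shared and r = 0.124. A minimum of 20 kb gave 3204 blocks, 333 and 328 past 1.5-fold. A minimum of 50 kb gave 205, with 15.8% and 17.5% covered, an untreated gap of 2218 bp, and 6 and 5 past 1.5-fold. At the same covered length the DHT gap was 2125 bp. At least 25% more or 20% less covered length was found in 224 and 298 blocks, 2-fold in 19 and 8, and by number of peaks 230 and 38, with a ratio of 1.13. Shares of peaks overlapped were 56.7% and 61.5%. Lists joined alone gave 349 and 226 blocks. In the same blocks, and added after the data were seen, the higher-scoring 50% gave 186 and 227 past 1.5-fold. Peaks under 2 kb, also added then, gave a ratio of 1.03 and 148 blocks higher. Fewer peaks per list or a shorter joining distance leave fewer blocks by construction, and the cause of the other shifts was not tested. The other 55 values of these summary results moved by less than their counting interval or under 1.5 times, and leaving out chromosome 19 was among those settings. Of 79 values of single named blocks in these settings, 1 moved beyond its interval, that on chromosome 2 given above. These intervals are wide, so a value inside them does not show a stable ratio. With the higher-scoring 50%, the ratio of 2.43 on chromosome 11 became 0.958. That of 1.83 in a most covered block on chromosome 22 became 0.823. Both stayed inside their intervals.

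No paired analysis was possible because each condition has 1 library. The lists give no read depth, so a stretch without a peak is a stretch below an unknown threshold, and differences between libraries, between calling runs and between treatments cannot be told apart.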
